A study of Mus musculus with 9 samples.

Results

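Interferon-stimulated genes are the genes that a cell turns on when an interferon, a secreted antiviral cytokine, binds its receptor. 9 of them were followed in mouse liver: Ifit1, Ifit2, Ifit3, Isg15, Irf7, Oasl2, Rtp4, Usp18 and Ifi47. They were chosen by name, as the entries of the deposited gene table that carry these symbols and hold a known transcript, and they are 9 of 26350 such entries. A further 7 entries with a member's symbol hold only transcripts assembled from these libraries and were not used. The table gives FPKM, a measure of expression corrected for the length of the transcript and the size of the library.

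The study asked which RNAs differ in the liver in alcoholic liver disease. Male mice, 8 weeks old by the labels, were kept for 5 weeks on an isocaloric control liquid diet (pair-fed, PF) or on the ethanol-containing Lieber-DeCarli liquid diet (alcohol-fed, AF). A further group on the Lieber-DeCarli diet also received MNA, a compound that the labels do not spell out, by daily intraperitoneal injection at 50 mg/kg (AF with MNA). Each group had 3 libraries of whole liver, depleted of ribosomal RNA. The labels give the strain as C57BL/6 for PF and AF, but as C57BL/7, C57BL/8 and C57BL/9 for the 3 libraries of AF with MNA, and the methods name C57BL/6J. The labels do not say that replicates came from separate mice, and p-values then measure only the spread between these libraries.

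A transcript at 1 FPKM was covered between 5.84 and 8.30 times on average, depending on the library, and one at 0.1 FPKM less than once. Hepatocyte markers dominated every library, with a summed level of 14309 to 21539 FPKM over 5 genes (Alb, Apoa1, Ttr, Serpina1a and Cps1). The 4 neutrophil markers, 7 T and NK cell markers, 4 B and plasma cell markers and 6 dendritic cell markers each summed to 2.64 FPKM or less, and Ly6g, Retnlg, S100a8, S100a9, Nkg7, Cd3d and Ncr1 were at 0 in some libraries but not in all. AF replicate 3 and AF with MNA replicate 1 stood apart in the summed FPKM of intronic lncRNA transcripts, at 9433 and 8934 against 2477 to 4937 in the other 7 libraries.

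In textbook accounts, type I interferons bind the Ifnar1 and Ifnar2 receptor pair, and interferon gamma binds Ifngr1 and Ifngr2. JAK kinases then phosphorylate STAT proteins, which join Irf9 and bind a DNA element called ISRE, or pair with each other and bind an element called GAS. In the liver, Kupffer cells, endothelium and hepatocytes all carry these receptors, and interferon signalling is known there from viral hepatitis and from the sensing of gut-derived nucleic acids.

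The DNA before the start site shows which members carry that element in its strict form, so 3 promoters are printed here. Of the 9 members, 7 had a window in the RefSeq promoter table (GRCm38.p6, 250 bases before to 50 bases after each start), all but Rtp4 and Usp18. The ISRE core was searched on both strands as GAAA, any 2 bases and GAAA again, and GAS as TTCNNNGAA. An ISRE core was found in the windows of Isg15, Ifit1 and Ifit3, 3 of the 7 genes, against 3.44% of all 32851 windows. Each sequence below runs 5′ to 3′ along the gene from 200 to 21 bases before the start site, with the ISRE cores in capitals.
Isg15, chr4:156200839-156201018, minus strand: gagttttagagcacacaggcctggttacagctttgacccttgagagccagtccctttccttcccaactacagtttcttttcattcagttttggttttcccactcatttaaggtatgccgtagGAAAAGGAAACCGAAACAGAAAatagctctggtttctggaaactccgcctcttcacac
Ifit1, chr19:34640689-34640868, plus strand: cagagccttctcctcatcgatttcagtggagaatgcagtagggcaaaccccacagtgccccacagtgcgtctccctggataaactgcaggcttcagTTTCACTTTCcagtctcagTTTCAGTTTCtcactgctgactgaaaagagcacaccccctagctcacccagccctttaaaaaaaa
Ifit3, chr19:34583329-34583508, plus strand: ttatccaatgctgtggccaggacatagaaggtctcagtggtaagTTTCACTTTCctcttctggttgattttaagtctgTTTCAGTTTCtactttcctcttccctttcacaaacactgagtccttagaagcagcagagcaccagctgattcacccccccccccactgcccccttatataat
Isg15 has 3 overlapping cores in a row, which start 78, 72 and 66 bases before the start site. Ifit1 and Ifit3 carry the same pair of 10-base words in the same order, TTTCACTTTC and then TTTCAGTTTC. They start 104 and 85 bases before the start site in Ifit1, and 156 and 122 bases before it in Ifit3. No ISRE core of this spelling lay in the windows of Ifit2, Irf7, Oasl2 or Ifi47, and 1 of the 2 Ifit2 windows held a GAS word, which 8.3% of all windows hold.

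The Ifit proteins bind foreign RNA and block its translation. Ifit1 (chr19:34640871-34650009, GRCm38, plus strand, a single annotated transcript) was at 4.11, 4.15 and 2.67 FPKM in PF. It was at 1.64, 1.46 and 1.6 FPKM in AF, and at 1.32, 0.01 and 2.61 FPKM in AF with MNA. Every AF and every AF with MNA library was below every PF library, and AF with MNA replicate 2 was nearly without reads. Ifit2 (chr19:34550694-34576419) was at 0.52, 0.91 and 0.92 FPKM in PF, at 0.71, 0.37 and 0.31 in AF, and at 0.53, 0.08 and 0.04 in AF with MNA. Its groups overlapped in every comparison, with 2 of the 3 AF with MNA libraries close to 0. Ifit3 (chr19:34583531-34588731) was at 0.27, 5.11 and 0.35 FPKM in PF, at 2.30, 1.67 and 0.42 in AF, and at 3.23, 0.13 and 3.70 in AF with MNA. High and low libraries of Ifit3 were found in all 3 groups.

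Isg15 is a ubiquitin-like protein that is attached to other proteins, and Usp18 is the protease that removes it and also dampens signalling at the interferon receptor. Isg15 (chr4:156199424-156200818, minus strand) was at 2.85, 2.03 and 0.80 FPKM in PF, at 0.93, 0.71 and 0.6 in AF, and at 0.07, 0.76 and 0.58 in AF with MNA. The lowest PF library lay below the highest AF library and just above the highest AF with MNA library. Usp18 (chr6:121245906-121270917) was at 5.16, 5.52 and 2.99 FPKM in PF, at 3.36, 4.96 and 1.85 in AF, and at 2.60, 2.30 and 2.06 in AF with MNA. PF and AF overlapped, whereas all AF with MNA libraries were below all PF libraries. A known lncRNA on the opposite strand overlaps the Usp18 region, at 0.228 to 1.02 FPKM, and the sources used here do not state whether the quantification used strand.

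Irf7 is the transcription factor that amplifies type I interferon production, and it was the most abundant member. Irf7 (chr7:141262706-141266481, minus strand) was at 12.34, 7.27 and 6.53 FPKM in PF, at 5.60, 7.01 and 6.69 in AF, and at 6.6, 5.65 and 5.45 in AF with MNA. PF replicate 1 stood above all others, and the other 8 libraries lay close together. Oasl2 (chr5:114896936-114912234), of the oligoadenylate synthetase family that senses double-stranded RNA, was at 0.60, 0.50 and 0.70 FPKM in PF, at 0.47, 0.36 and 0.32 in AF, and at 0.43, 0.43 and 0.66 in AF with MNA. All AF libraries were below all PF libraries, and AF with MNA overlapped both.

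Rtp4 is a chaperone of membrane receptors that interferon induces, and Ifi47 is a GTPase of the family that interferon gamma induces against intracellular pathogens. Rtp4 (chr16:23520291-23614222) was at 1.28, 2.08 and 1.31 FPKM in PF, at 1.54, 0.77 and 1.95 in AF, and at 1.81, 0.98 and 1.19 in AF with MNA. Ifi47 (chr11:49076587-49096974) was at 0.07, 1.83 and 0.01 FPKM in PF, at 0.03, 0.04 and 0.41 in AF, and at 0.81, 0.69 and 0.03 in AF with MNA. The groups overlapped for both genes. Both entries are merged with a neighbour: that of Ifi47 holds 3 transcripts of Olfr56 beside 5 of its own, and that of Rtp4 holds 5 transcripts of the lncRNA Gm45338 beside 5 of its own. The 5 known lncRNA transcripts in the Rtp4 entry summed to 6.00, 6.95 and 6.62 FPKM in PF, to 3.14, 4.29 and 6.01 in AF, and to 3.76, 3.90 and 3.38 in AF with MNA, above the entry's own value in each library, and what the entry's value is made of was not tested.

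**Figure D1:**
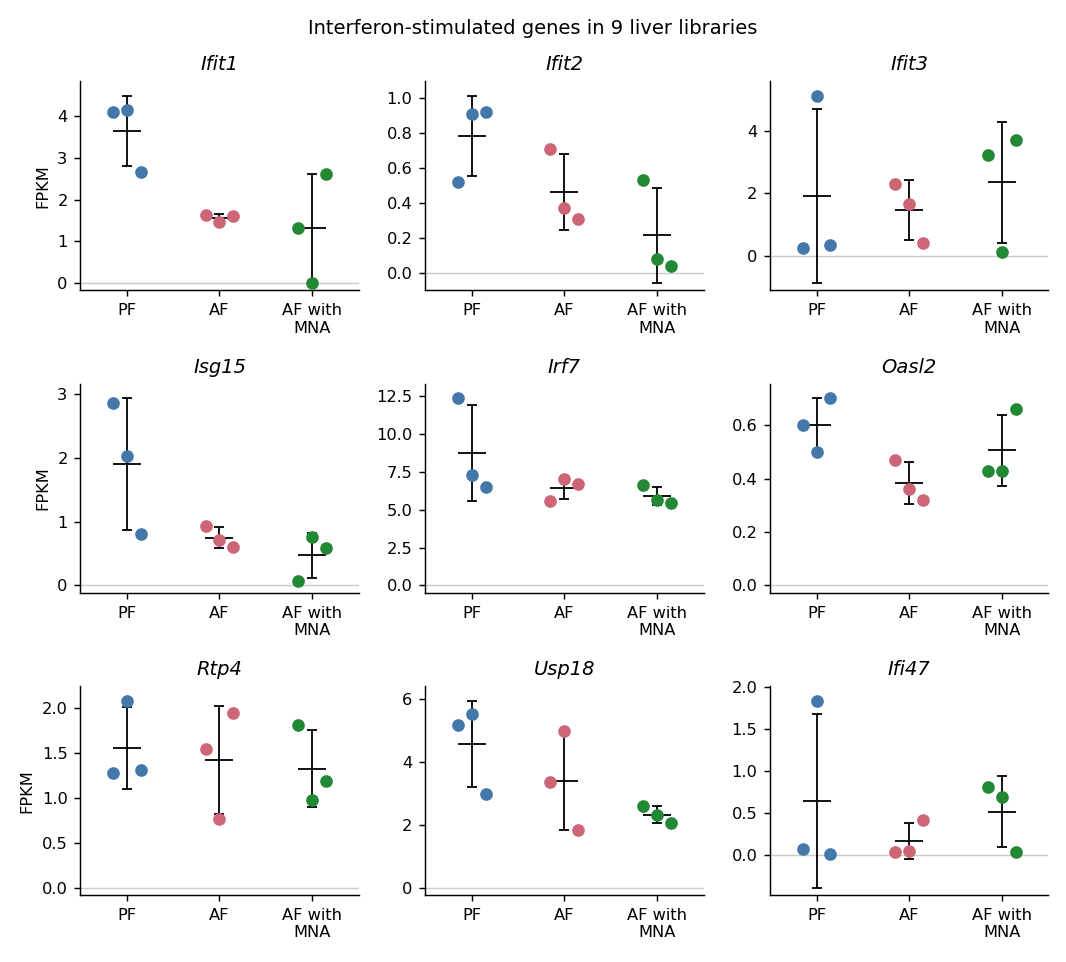
FPKM of the 9 members in each library (points), with the mean (horizontal line) and SD (bars) of the 3 libraries per group, each panel on its own linear scale. The highest library of every member is a PF library, and Ifit1 and Oasl2 are the members whose AF libraries all lie below their PF libraries. The share of all genes with their highest library in PF was not computed.

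For all 9 members the highest of the 9 libraries was a PF library, and the lowest was an AF with MNA library for 5 of them, an AF library for 3 and a PF library for Ifi47. The mean was lower in AF than in PF for 9 of 9 members, lower in AF with MNA than in PF for 8 of 9, and lower in AF with MNA than in AF for 6 of 9. Shares of all genes with such an order of libraries or means were not computed, so these counts are a description. By the fitted level of log2(FPKM + 1), 6 of 7, 7 of 9 and 5 of 6 tested members were lower, against 54.5%, 52.8% and 47.6% of all tested genes. In these counts Ifit2 against PF, and Isg15 in both comparisons of AF with MNA, had to be lower. They reached the minimum mean for testing, 0.5 FPKM over the 6 libraries compared, only through the higher group. For Ifit3 and Ifi47 the lower AF mean rested on PF replicate 2, without which their PF libraries were at 0.35 FPKM or less and 0.07 or less. Ordered by their PF mean, the members ran Irf7 (8.71 ± 3.16 FPKM, SD, n = 3), Usp18 (4.56 ± 1.37), Ifit1 (3.64 ± 0.84), Ifit3 (1.91 ± 2.77), Isg15 (1.89 ± 1.03), Rtp4 (1.56 ± 0.45), Ifit2 (0.78 ± 0.23), Ifi47 (0.64 ± 1.03) and Oasl2 (0.60 ± 0.10). Neighbours in that order differed by less than the larger of their SDs except Irf7 and Usp18, and Rtp4 and Ifit2. Whole liver was sequenced, so fewer cells of a type and less RNA per cell cannot be told apart.

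The comparison of AF with PF asked what the alcohol diet changed. Of the 9 members, Ifit1 alone was lower in AF past the threshold of the study, an unadjusted p below 0.05 together with a change of group means beyond 1 on the log2 scale. Of all 12273 tested genes, 2.35% passed it in that direction and 1.95% in the other. The paper set that threshold for lncRNAs, and here it was used for gene entries with the limma p. Oasl2 and Ifi47 were below the minimum mean of 0.5 FPKM over the 6 libraries and were not tested, and Ifit2 passed it only through its PF libraries. Ifit1 fell from 3.64 ± 0.84 to 1.57 ± 0.09 FPKM (SD, n = 3), a log2 ratio of -1.22. Its difference of log2(FPKM + 1), a scale that understates the change of low genes, was -0.84 ± 0.16 (SE), with an unadjusted limma p of 0.00166 and an adjusted p of 0.125. The call was lost when all 9 libraries shared one estimate of the spread, where Ifit1 had an unadjusted limma p of 0.0652 and Isg15 one of 0.047. No member passed an adjusted p of 0.05, as 0.326% of all genes did, and 1 of the 7 tested had an unadjusted p under 0.05, where 6.57% of all genes were lower at that level.

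Isg15 had the largest log2 ratio among the tested members, -1.34, with means of 0.75 ± 0.17 in AF and 1.89 ± 1.03 FPKM in PF. Its difference on the log2(FPKM + 1) scale was -0.66 ± 0.28 (SE), with an unadjusted limma p of 0.0515 and an adjusted p of 0.431. Without PF replicate 3 its unadjusted limma p was 0.00183, and without AF replicate 1 that of Ifit2 was 0.0466. Either omission raised the count of members called from 1 to 2, the latter with Ifit2, which was tested only through its PF libraries. The difference was smaller without PF replicate 1 for Isg15, at -0.42, and without AF replicate 3 for Ifit2, at -0.21. Log2 ratios of the others were -0.76 for Ifit2, -0.44 for Irf7, -0.43 for Usp18 and -0.13 for Rtp4, none with an unadjusted limma p under 0.1. Ifit3 differed in sign between its log2 ratio of means (-0.38) and its mean difference of log2 values (0.09 ± 0.65). Over all 9 members the median log2 ratio of means was -0.65. For Ifit1 and Oasl2, AF and PF did not overlap, as for 10.1% of all tested genes in that direction, and the exact permutation test gave p = 0.1 for both, the smallest that 3 against 3 libraries allow.

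**Figure D2:**
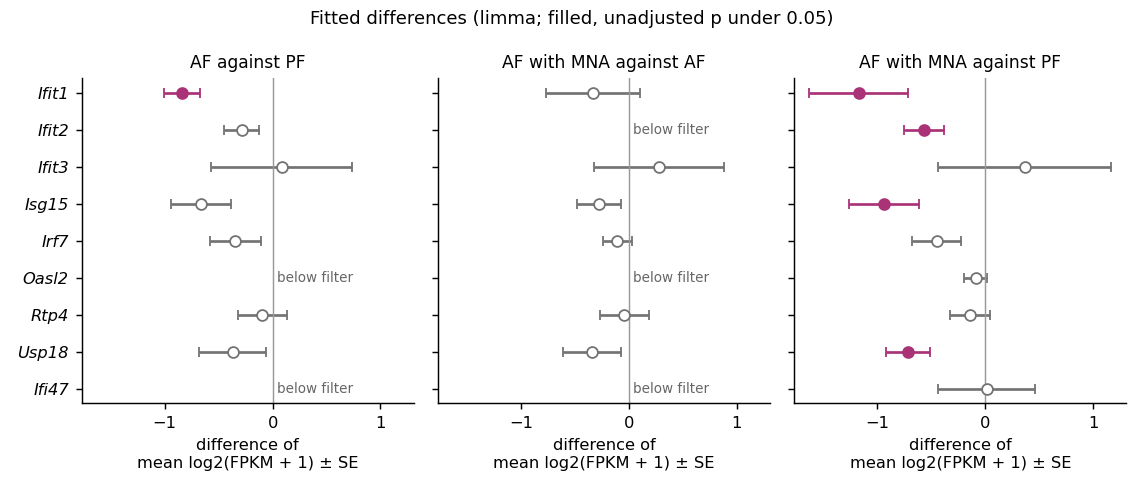
Difference of mean log2(FPKM + 1) between groups for each member (points) with its standard error from limma (bars), filled where the unadjusted p is under 0.05, and "below filter" where the mean was under 0.5 FPKM. Ifit1 is filled in AF against PF, no member in AF with MNA against AF, and Ifit1, Ifit2, Isg15 and Usp18 in AF with MNA against PF.

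Ifit3 needs its paralogue beside it. Ifit3b lies next to Ifit3 on chromosome 19 (chr19:34607970-34613401), and the coding sequences of both, 1212 bases each in GENCODE M21, are identical at 1201 bases (99.1%). Of the 1113 windows of 100 bases in Ifit3, 45.3% occur letter for letter in Ifit3b, whereas Ifit3 shares 70.4% of aligned bases with Ifit1 and 72.6% with Ifit2, and no such window. Only coding bases were compared, and not the rest of the transcripts, which have 1745 bases for Ifit3 and 2000 for Ifit3b. The first 180 coding bases are printed to show how alike the pair is there, with the 2 bases that differ in capitals.
Ifit3: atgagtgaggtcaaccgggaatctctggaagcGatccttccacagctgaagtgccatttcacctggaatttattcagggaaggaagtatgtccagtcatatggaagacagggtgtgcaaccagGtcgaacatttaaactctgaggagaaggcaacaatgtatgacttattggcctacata
Ifit3b: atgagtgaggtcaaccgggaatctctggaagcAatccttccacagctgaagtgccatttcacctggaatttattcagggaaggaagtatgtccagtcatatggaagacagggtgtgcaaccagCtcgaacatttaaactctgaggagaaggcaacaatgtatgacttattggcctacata
Ifit3b was at 1.43, 0.03 and 1.33 FPKM in PF, at 0.68, 0.43 and 0.48 in AF, and at 1.07, 0.70 and 1.15 in AF with MNA. In PF replicate 2, where Ifit3 had its highest value, Ifit3b was nearly at 0, and Ifit3 took 99.4% of the sum of both. That share was 15.9% and 20.8% in the other PF libraries, 46.7% to 79.5% in AF and 15.7% to 76.3% in AF with MNA. The sum of both was 2.84 ± 1.99 FPKM in PF, 1.99 ± 1.04 in AF and 3.33 ± 2.18 in AF with MNA (SD, n = 3), with overlapping groups. Values of either gene alone are uncertain, since the deposited quantification could divide shared reads between them.

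**Figure D3:**
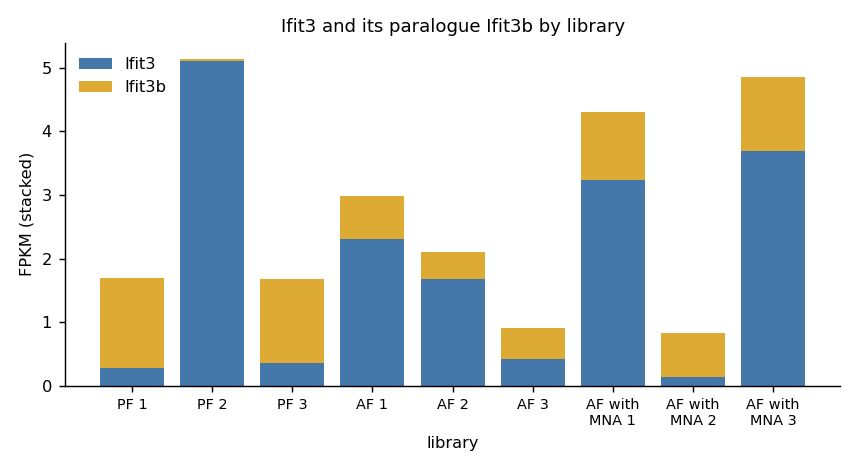
FPKM of Ifit3 (blue) and Ifit3b (yellow) stacked for each library. The division between the pair changes from library to library, with 99.4% for Ifit3 in PF replicate 2 and 15.9% in PF replicate 1.

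AF with MNA was then set against AF, to see what the injections added to the diet. Of the 6 members tested, 0 had an unadjusted limma p under 0.05 in either direction, where 2.3% of all 12219 genes were lower and 2.91% higher, and none passed the threshold of the study, as 0.949% of all genes did downwards and 1.03% upwards. None of the 6 passed an adjusted p of 0.05 (0.0491% of all genes). Ifit2, Oasl2 and Ifi47 were under the minimum mean and were not tested, with log2 ratios of -1.10, 0.40 and 1.67 and overlapping groups, and AF with MNA lay below AF without overlap for none of the 9, as for 4.57% of all tested genes. Ifit1 had means of 1.31 ± 1.3 and 1.57 ± 0.09 FPKM (log2 ratio -0.25), with an unadjusted limma p of 0.472. Its difference of log2(FPKM + 1) was -0.33, and it was 0.17 without AF with MNA replicate 2 and -0.74 without AF with MNA replicate 3. For Usp18 the log2 ratio was -0.55, with an unadjusted limma p of 0.245, and its difference of log2(FPKM + 1), -0.34, was -0.62 without AF replicate 3, with an unadjusted p of 0.0173, and -0.09 without AF replicate 2. Ifit3 had a log2 ratio of 0.69, and without AF with MNA replicate 2 its unadjusted p was 0.0478, while its difference of log2(FPKM + 1) was below 0 without AF replicate 3 or without AF with MNA replicate 1 or 3. The SE of the difference of log2(FPKM + 1) was 0.13 for Irf7, 0.44 for Ifit1 and 0.60 for Ifit3, so that the last 2 were the least precise of the tested members.

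Against PF, Ifit1 and Usp18 were lower in AF with MNA at an unadjusted limma p under 0.05, where 7.94% of all 12281 genes were lower. Ifit1 also passed the threshold of the study, as 1.95% of all genes did in that direction and 1.94% in the other, and no member passed an adjusted p of 0.05 (0.423% of all genes). Ifit2 and Isg15 were past the threshold too, but they reached the minimum mean only through PF, the group where they were high, and are not counted. This comparison shares its PF libraries with that of AF against PF, and the 2 are not independent. Isg15 had means of 0.47 ± 0.36 and 1.89 ± 1.03 FPKM (SD, n = 3), a log2 ratio of -2.01, with an adjusted p of 0.287 in limma. Ifit2 had means of 0.22 ± 0.27 and 0.78 ± 0.23 FPKM, a log2 ratio of -1.85, with an adjusted p of 0.277. Ifit1 had a log2 ratio of -1.47 with an adjusted p of 0.331. Usp18, at 2.32 ± 0.27 against 4.56 ± 1.37 FPKM, had a log2 ratio of -0.97 with an adjusted p of 0.235 and the lowest unadjusted p of the members, 0.0123. Ifit1 and Usp18 did not overlap between these groups, as 11.9% of all tested genes in that direction, with an exact permutation p of 0.1 each. Isg15, not counted for the reason above, did not overlap either, with the same exact permutation p.

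The calls of Ifit1, Ifit2 and Isg15 depended on single libraries, and that of Usp18 did not. Usp18 kept an unadjusted limma p under 0.05 without any one library. Ifit1 lost it without PF replicate 1, 2 or 3, without AF with MNA replicate 1 and with a pseudocount of 0.1, and both genes lost it in the model with a library-size covariate, where Ifit1 had an unadjusted p of 0.341 and Usp18 one of 0.0949. Ifit2 lost it in 4 of the 6 omissions and Isg15 in 3. Irf7 (log2 ratio -0.56), Rtp4 (-0.23), Oasl2 (-0.24) and Ifi47 (-0.32) had unadjusted p-values from 0.095 to 0.975, and Ifit3 had a log2 ratio of 0.30. Without PF replicate 3 the unadjusted limma p of Irf7 was 0.0444. Its difference of log2(FPKM + 1), -0.45, was -0.20 without PF replicate 1.

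The wider pathway was read from lists of genes, beginning with the ligands. Of 18 type I interferons, 3 had an entry and only Ifnk, a type I interferon of epithelia, reached 0.5 FPKM, at 1.83, 2.36 and 1.94 FPKM in PF, at 1.23, 1.29 and 2.03 in AF, and at 1.69, 2.04 and 2.18 in AF with MNA. Its groups overlapped, with an unadjusted limma p of 0.123 for AF against PF. Ifng, which encodes interferon gamma, was listed at 0 in 8 of the 9 libraries and at 0.06 FPKM in AF with MNA replicate 1.

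Among the receptors, 2 of 4 tested were lower in AF than in PF at an unadjusted p under 0.05, against 6.57% of all genes. Il10rb and Ifngr1 went the other way, with unadjusted limma p-values of 0.209 and 0.327. Il10rb had means of 5.85 ± 0.31 in AF and 5.17 ± 0.20 FPKM in PF, without overlap, and Ifngr1 of 2.77 ± 0.85 and 2.21 ± 0.46. Ifngr2, the signalling chain of the interferon gamma receptor, was at 6.80, 5.36 and 6.31 FPKM in PF, at 2.57, 1.38 and 3.82 in AF, and at 2.95, 4.36 and 4.77 in AF with MNA. It fell from 6.16 ± 0.73 to 2.59 ± 1.22 FPKM between PF and AF, a log2 ratio of -1.25, with an adjusted p of 0.216 in limma. No AF or AF with MNA library reached the lowest PF library. Ifnar1, named after its values were seen, had means of 6.36 ± 0.63 in AF and 8.37 ± 0.41 FPKM in PF (adjusted p = 0.356 in limma), and its call was lost without PF replicate 1 or 2 or without AF replicate 2 or 3. Ifnar2 is merged into the Il10rb entry and has no value of its own.

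The transducers are the JAK kinases, STAT proteins and Irf9. All 6 had a lower fitted level in AF than in PF, where 54.5% of all tested genes did, and 2 of the 6 had an unadjusted p under 0.05, as 6.57% of all genes in that direction. Stat2 was the most abundant, at 53.35, 39.70 and 41.25 FPKM in PF, at 36.06, 31.16 and 39.81 in AF, and at 38.17, 38.39 and 31.72 in AF with MNA, and did not pass, with an unadjusted limma p of 0.109. PF replicate 1 stood above the other 8 libraries. Irf9, the DNA-binding partner of the STAT proteins, was named after its values were seen. It was at 4.51, 4.62 and 4.18 FPKM in PF, at 3.44, 2.58 and 3.63 in AF, and at 2.81, 3.27 and 3.89 in AF with MNA. The 3 PF libraries of Irf9 stood together above the other 6. In AF with MNA against PF, 4 of the 6 transducers were lower at an unadjusted p under 0.05, among them Irf9, Jak2 and Tyk2, against 7.94% of all genes.

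Sensors of foreign nucleic acid, which switch on interferon genes, had 4 of 13 tested genes lower in AF than in PF at an unadjusted p under 0.05 and none higher, against 6.57% and 5.1% of all genes. They were Dhx58, Ddx58, Irf5 and Ifih1, and Dhx58 alone of them kept its call without any 1 library. Dhx58, a helicase of the RIG-I family, was at 3.26, 2.46 and 2.62 FPKM in PF, at 1.44, 1.34 and 1.74 in AF, and at 1.23, 0.73 and 1.12 in AF with MNA. Its groups fell in 2 separate ranges, PF above the rest, and it passed the threshold of the study in AF with MNA against PF (log2 ratio -1.44, adjusted p = 0.0904 in limma). Irf5, a transcription factor downstream of the sensors, passed there too, with means of 1.07 ± 0.27 and 2.27 ± 0.56 FPKM. Myd88, the adaptor of Toll-like receptors, went the other way in that comparison, at 4.66 ± 0.68 against 3.13 ± 0.30 FPKM (adjusted p = 0.228 in limma), and was the only gene of this list higher at an unadjusted p under 0.05.

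A longer list held other interferon-stimulated genes, without the 9 members. Of its 106 genes, 97 had an entry and 75 were tested in AF against PF. At an unadjusted p under 0.05, 27 of the 75 (36%) were lower in AF and 0 were higher, where 6.57% of all genes were lower and 5.1% higher. A gene that reached the minimum mean only through PF had to be lower in AF, and with no minimum 32 of the 97 (33.0%) were lower and 0 higher, where 4.59% of all genes were lower. The median difference of log2(FPKM + 1) over the 75 was -0.30, against -0.03 over all tested genes, and 62 of the 75 lay below 0. None passed an adjusted p of 0.05 with limma, and 2 did when all 9 libraries were fitted together. Without PF replicate 1, 14 of the 75 (18.7%) were lower, where 4.56% of all genes were, and 2 were higher. The members and lists were chosen with earlier results of these libraries known, so these counts are a description.

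Eif2ak2 encodes PKR, the kinase that shuts off translation on double-stranded RNA. It was at 3.49, 3.55 and 3.11 FPKM in PF, at 1.96, 1.9 and 1.2 in AF, and at 1.9, 1.79 and 2.81 in AF with MNA. All 6 alcohol-fed libraries lay below the PF range, and the AF mean was 1.69 ± 0.42 against 3.38 ± 0.24 FPKM, with an adjusted limma p of 0.152. Epsti1 had means of 0.60 ± 0.27 in AF and 1.21 ± 0.11 FPKM in PF. Both passed the threshold of the study, with log2 ratios of -1.004 and -1.01, and Epsti1 had an unadjusted limma p above 0.05 without PF replicate 1 or without PF replicate 3. The 6 most abundant genes of the list were Ifitm3, Lgals9, Iigp1, Stat2, Bst2 and Ifitm2, and Iigp1 alone of them had an unadjusted p under 0.05. Ifitm3, which blocks virus entry, had means of 166 FPKM in AF and 188 in PF, and Bst2, which tethers virus particles, 37.9 and 38.5. Ifitm2 was at 41.36, 18.10 and 0.66 FPKM in PF and at 43.65, 39.01 and 36.78 in AF, with an unadjusted limma p of 0.135, and PF replicate 3 stood far below the rest. Ifi27, Dtx3l and Iigp1, more abundant than most of the members, were named after their values were seen. Ifi27 was at 28.11, 28.15 and 22.21 FPKM in PF, at 13.28, 17.33 and 14.50 in AF, and at 16.25, 17.55 and 18.60 in AF with MNA. Dtx3l, a ubiquitin ligase that works with Parp9, was at 20.42, 19.94 and 17.85 FPKM in PF, at 12.84, 9.71 and 10.91 in AF, and at 12.72, 13.24 and 14.53 in AF with MNA. PF lay above the other 6 libraries in both, without overlap. Their AF against PF log2 ratios of -0.80 did not reach the fold of the study's threshold, and their unadjusted limma p-values were 0.00245 and 0.00135.

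The GTPases and other targets of interferon gamma, 22 tested genes of the same long list, had 9 lower in AF and 0 higher at an unadjusted p under 0.05, against 6.57% and 5.1% of all genes. The 9 include Gbp6 and Gbp11, which had to be lower because they were tested only through their PF libraries. Gbp6, a guanylate-binding protein, was at 1.37, 1.07 and 1.25 FPKM in PF, at 0.50, 0.42 and 0.47 in AF, and at 0.55, 0.46 and 0.60 in AF with MNA. Its AF and PF ranges were far apart for their spread, with a log2 ratio of -1.41 and an adjusted limma p of 0.114, and like Gbp11 it reached the minimum mean only through PF. Gbp11 was at 5.99, 1.28 and 1.63 FPKM in PF, at 0.64, 0.26 and 0.38 in AF, and at 0.35, 0.74 and 0.78 in AF with MNA, and PF replicate 1 alone stood far above the rest. Without AF replicate 2 or without AF replicate 3 its unadjusted limma p was above 0.05. Irgm2, an immunity-related GTPase of the same kind as Ifi47, was at 5.69, 2.95 and 3.15 FPKM in PF, at 2.23, 2.27 and 1.01 in AF, and at 2.77, 3.00 and 2.51 in AF with MNA, which overlapped PF and lay above AF. Its log2 ratio of AF to PF was -1.10, with an adjusted limma p of 0.369, and without PF replicate 1 or without AF replicate 3 its unadjusted p was above 0.05. Iigp1, the most abundant of these GTPases, was at 74.65, 69.07 and 64.34 FPKM in PF, at 50.65, 42.19 and 33.97 in AF, and at 39.45, 38.86 and 45.29 in AF with MNA. The entry of Gbp6 also holds Gbp10, and that of Irgm2 holds Igtp. Irgm2 carries 1 ISRE core within 80 bases of its start site, as Isg15 does, and its stretch is printed for comparison with the members.
Irgm2, chr11:58214898-58214937, plus strand: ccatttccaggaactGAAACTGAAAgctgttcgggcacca
An ISRE core stood in the window of 8 of the 20 long-list genes lower in AF that have one (40%) and of 16 of the 36 that were tested and not lower (44.4%).

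**Figure D4:**
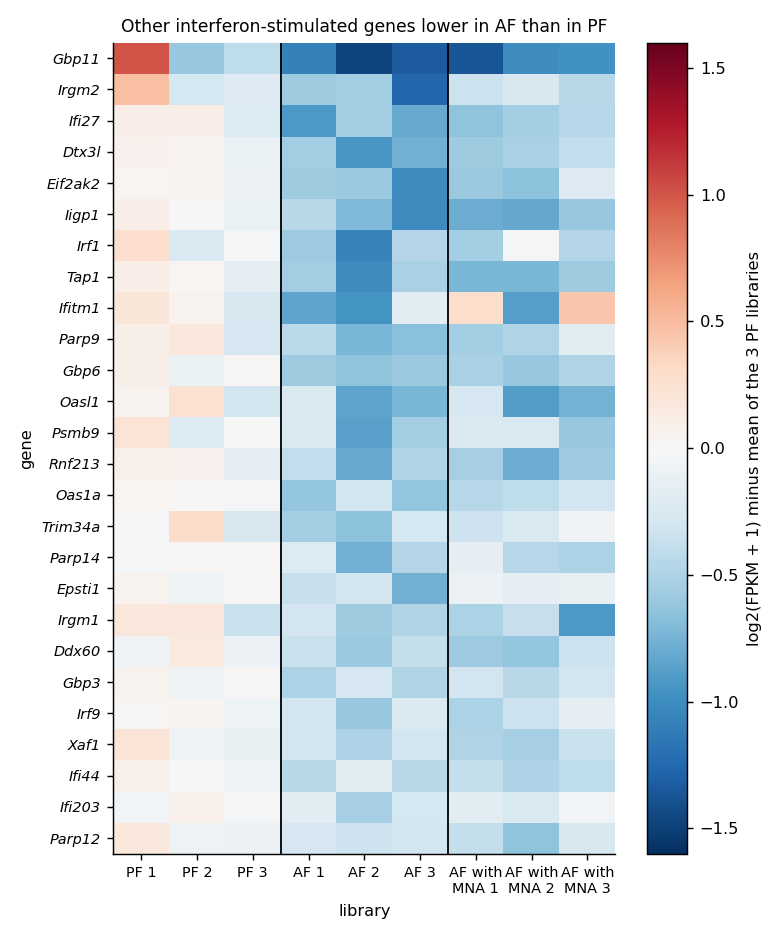
Log2(FPKM + 1) minus the mean of the 3 PF libraries for 26 of the 27 listed genes lower in AF than in PF at an unadjusted p under 0.05 (rows, ordered by their fitted difference) in the 9 libraries (columns). These genes were selected on the AF and PF columns, and all columns are set against the same PF mean, so the colours are a description of each library and no further evidence for any of the 3 comparisons.

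In AF with MNA against AF, 74 genes of the long list were tested, and 0 were lower and 2 higher at an unadjusted limma p under 0.05, shares no larger than the 2.3% and 2.91% of all genes. Cxcl10, a chemokine that attracts T cells, was at 0.54, 0.35 and 0.76 FPKM in AF and at 0.74, 1.48 and 1.10 in AF with MNA, and passed the threshold of the study (log2 ratio 1.01, adjusted p = 0.94). In PF it was at 0.67, 0.51 and 0.87 FPKM, and its call was lost without AF replicate 1 or 2 or without AF with MNA replicate 2 or 3. The other was Ifit3b, whose values are uncertain as above. The median difference over the list was 0.02, against 0.01 over all tested genes.

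In AF with MNA against PF, 79 were tested, with 27 (34.2%) lower and 1 higher, Trim25, where 7.94% and 6.52% of all genes were. With no minimum mean, 30 of 96 were lower, 31.2% against 5.41% of all genes. The median difference was -0.23, against -0.02 over all tested genes. Without PF replicate 1, 18 (22.8%) were lower, where 6.33% of all genes were, and 2 were higher. Past the threshold of the study were Gbp6, Gbp11, Ifi44, Ddx60, Xaf1 and Mx2, and Gbp11 lost its call without any 1 of the AF with MNA libraries. Mx2, a dynamin-like GTPase with antiviral action, was at 2.43, 1.72 and 1.22 FPKM in PF, at 1.33, 0.96 and 1.01 in AF, and at 0.76, 0.69 and 0.90 in AF with MNA. Ifi44, Ddx60 and Xaf1 had means of 0.35 to 0.58 FPKM in AF with MNA and of 0.82 to 1.25 in PF, without overlap, and Ifi44 reached the minimum mean only through PF. Of the negative regulators, 2 of 9 were lower here at an unadjusted limma p under 0.05, the member Usp18 and Samhd1, and 0 of 9 were lower or higher in AF against PF. The most abundant, Ptpn11, was at 3.93 to 9.37 FPKM in PF, at 8.72 to 9.6 in AF and at 3.51 to 10.72 in AF with MNA.

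**Figure D5:**
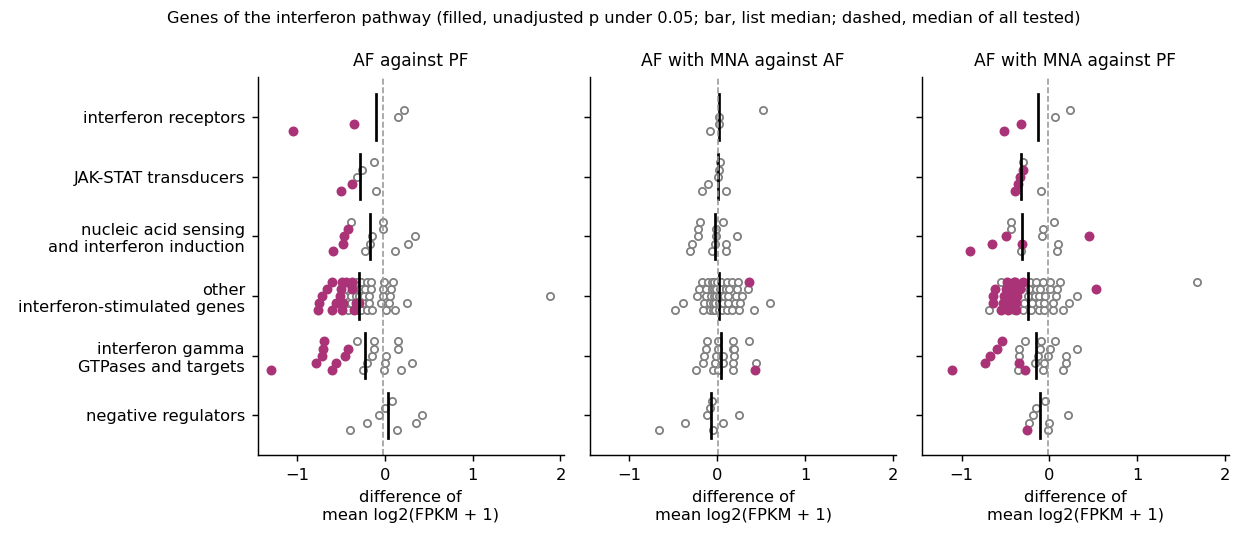
Difference of mean log2(FPKM + 1) for each tested gene of 6 lists without the members (points, filled at an unadjusted limma p under 0.05), with the list's median (black bar) and the median of all tested genes (dashed line), in the 3 comparisons. Filled points lie to the left of 0 in AF against PF for 5 of the 6 lists, and nearly all points of AF with MNA against AF are open.

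Markers of the cells that could carry these transcripts were read beside them. The 6 Kupffer cell markers summed to 57.4 to 70.1 FPKM in PF, 45.3 to 84.9 in AF and 57.6 to 76.2 in AF with MNA, with none at 0. Of 6 monocyte and macrophage markers 5 had an entry, and they summed to 6.89 to 17.5 FPKM in PF, 4.35 to 24.7 in AF and 22.7 to 27.7 in AF with MNA, nearly all of it Lyz2. The 6 dendritic cell markers summed to 1.6 to 2.64, 2.17 to 2.61 and 1.65 to 2.36 FPKM. Sinusoidal endothelium, with 5 markers, summed to 19.7 to 24.3 FPKM in PF, 24.9 to 36.2 in AF and 30.4 to 33.8 in AF with MNA, above PF in all 6 alcohol-fed libraries. The part of cell composition in these differences was not tested.

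The genes whose levels ran most like those of the members were sought among 12251 other genes, by Pearson's r over the 9 libraries with the members' mean standardised log2(FPKM + 1). That mean stood at 0.64, 1.13 and 0.09 SD in PF, at -0.03, -0.33 and -0.38 SD in AF, and at -0.04, -0.81 and -0.27 SD in AF with MNA. PF replicate 2 was the highest library, and AF with MNA replicate 2 the lowest. The 10 most alike were Tmem184c (r = 0.975), Rab29 (0.959), Slc25a45 (0.954), Acbd3 (0.943), Arsg (0.942), Oasl1 (0.938), Fabp5 (0.925), Fam114a1 (0.919), Chd1l (0.917) and Heatr5b (0.917). Oasl1, a paralogue of Oasl2, was the only one on an interferon list, at 4.01, 4.70 and 2.95 FPKM in PF, at 3.11, 1.69 and 1.91 in AF, and at 3.00, 1.59 and 1.85 in AF with MNA. These r values share 9 libraries and were picked from many, and are a description. Of 4486 circRNAs, 0 were hosted by a member.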

How the data were processed

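The authors deposited gene FPKM, and lncRNA transcript FPKM, made with StringTie 1.3.4, per the labels and the methods, with gene values rounded to 2 decimals. They also deposited the mean read coverage of each lncRNA transcript (an unscaled signal), back-splice junction counts of circRNAs, and those counts scaled by the library as a signal. The labels' processing notes also name cutadapt 1.9, HISAT2, TopHat, FastQC and edgeR; how strand and shared reads were treated is not given in the sources used here. Libraries were depleted of ribosomal RNA and made by a dUTP method.

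Gene entries with a known transcript were used as log2(FPKM + 1). A gene entered the test if its mean over the 6 libraries reached 0.5 FPKM. The test was limma 3.58.1 (R 4.3.3; lmFit, eBayes with a trend on mean level), two-sided, with Benjamini-Hochberg adjustment over all tested genes. The study's threshold took an unadjusted p below 0.05 together with group means more than 1 apart on the log2 scale. The paper applied it to lncRNAs with the Ballgown package, so calls made here with limma are not those of its own test. The exact permutation tests were two-sided on group means. The fit was tested on simulated data first. Loci are from GENCODE M21 (GRCm38) and promoters from RefSeq. The samples' groups came from the labels, and no per-sample column was left unmatched (0). FPKM carry no counts, so no counting interval is given.

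The members and lists were chosen with earlier results of these data known. Named were all members, per list the genes past the study's threshold in any comparison (at most 6 by lowest p) or else the most abundant gene, and the 10 genes most like the members. Other names were chosen after their values were seen. Some transducers are also on the longer list, and 1 gene counted in these lists is not reported here. Alternatives were a pseudocount of 0.1, other minimum means, median scaling, all 9 libraries in the fit, a replicate block, the library-size covariate model, the fitted coefficient as fold change, and each library left out. Python 3.11.15, numpy 2.4.6, pandas 2.3.3, scipy 1.17.1 and matplotlib 3.10.9 were used.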

Additional observations from a re-analysis of the deposited data

How the results depend on the processing

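Scaling every library to the same median or including all 9 libraries left the counts of members and of listed genes within 1.5 times. In AF against PF, a minimum mean of 2 FPKM gave 16 of 39 other interferon-stimulated genes lower (41.0%, against 7.1% of all genes), and the fitted coefficient as fold change left 0 members past the threshold. The replicate block gave 2 members lower and 2 past the threshold. In AF with MNA against PF, where the number lower was 4 and past the threshold 3 with Ifit2 and Isg15 included, members lower numbered 2 at a minimum of 2 FPKM (Ifit1 and Usp18), 2 with the replicate block (Irf7 and Usp18) and 1 in the covariate model (Isg15), and those past the threshold 1, 0 and 1, with 1 when the coefficient was the fold change. The other genes lower there were 17 of 41 at a minimum of 2 FPKM (41.5%, against 8.17% of all genes) and 17 of 79 in the covariate model (21.5%, against 5.06%). The block is not used above because replicate numbers did not pair the libraries: same-numbered libraries deviated together with r from -0.079 to 0.0625.

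With each library left out, AF against PF gave 1 to 2 members lower, 1 to 2 past the threshold and 14 to 24 other genes lower. AF with MNA against AF gave 0 to 1 for each of these. AF with MNA against PF gave 1 to 3, 0 to 2 and 18 to 25. The member counts include Ifit2 and Isg15, also where they reached the minimum mean only through the higher group. In the refits of the members, direction turned in 9 of 88 in AF against PF, 7 of 75 in AF with MNA against AF and 8 of 113 in AF with MNA against PF, and no reversed refit that gave a p had one under 0.05. For AF against PF, Ifit3 turned to -0.085 in the covariate model and to -0.31 when summed with Ifit3b (added after the data were seen), and ranged from -0.31 to 0.83 over the omissions. Rtp4 turned to 0.017 in the covariate model and ranged from -0.26 to 0.11. For AF with MNA against AF, the omissions gave -0.74 to 0.17 for Ifit1, -0.087 to 0.94 for Ifit3 and -0.25 to 0.12 for Rtp4. For AF with MNA against PF, Ifi47 turned to -0.16 in the covariate model and ranged from -0.25 to 0.50, Ifit3 from -0.026 to 1.11 and Rtp4 from -0.28 to 0.0039. The cause of these changes was not tested. A value of 0.1 FPKM or less stands for a mean coverage of less than once.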
